A study of Mus musculus with 6 samples.

Results

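The 34 genes described here are markers of macrophages and other myeloid cells, together with Csf1, the growth factor that sustains macrophages. They were taken by symbol from 18193 mouse genes with a probe set, and the probe set with the highest mean over all arrays stood for each gene. They fall into 7 genes known from tissue-resident macrophages (Cd163, Mrc1, Clec10a, Folr2, Lyve1, Stab1 and Maf), 26 genes shared more widely among myeloid cells or leukocytes, and Csf1. RNA came from whole mammary glands of 3 Elf5 knockout (KO) mice and 3 wild-type (WT) mice, 1 Affymetrix one-colour array per mouse. All 6 glands are labelled as taken on day 17 of pregnancy, but the design text of the series names day 1 of lactation instead. Luminal epithelial cells of the gland use the ETS factor Elf5, and KO is the only description of the allele in the labels. The sources used here give neither strain nor age, nor how and in which cells Elf5 was disrupted. Whole glands hold epithelium, fibroblasts, fat, vessels and leukocytes, so in such bulk RNA more cells of a type and more RNA per cell cannot be told apart.

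Macrophages arise from embryonic precursors or from blood monocytes and depend on signalling through the receptor Csf1r. In the mammary gland they lie in the stroma and along the ducts, take part in duct growth during puberty and clear dead cells and debris during involution. Resident macrophages of connective tissue are known for the scavenger receptor Cd163, the mannose receptor Mrc1 and the hyaluronan receptor Lyve1. The genes Ptprc, Tyrobp, Fcer1g and Itgam are shared by many leukocytes.

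Elf5 itself read 5616, 4361 and 3128 in KO arrays 1, 2 and 3, against 12011, 8044 and 7244 in WT arrays 1, 2 and 3, on the linear signal scale of its brighter probe set. The KO mean was 48.0% of the WT mean there and 33.7% on the other probe set, so a transcript was still measured. Elf5 differed by -1.06 ± 0.32 on the log2 scale (SE) and missed the threshold (adjusted p = 0.109, paired adjusted p = 0.0151). The labels do not say where its probes lie relative to the disruption. A measure of RNA quality varied between arrays. For Gapdh, the signal at the 3′ end divided by that at the 5′ end, a ratio that grows as RNA is degraded, was 0.802, 3.89 and 13.6 in KO arrays 1, 2 and 3, against 1.09, 0.833 and 0.876 in WT arrays 1, 2 and 3 (log2 difference 1.92, two-sided exact permutation p = 0.4; 3 against 3 arrays give no p under 0.1). The Actb ratio was 1.58, 1.87 and 21.0 in the KO arrays and 1.20 to 2.04 in the WT arrays (exact permutation p = 0.5). Values over KO array 1 and the 3 WT arrays, whose Gapdh ratios were all under 2, are called low-ratio values below. They rest on a single KO array. Across the genes tested, arrays correlated at 0.822 to 0.904 among KO and 0.917 to 0.955 among WT. KO array 1 correlated with the WT arrays at 0.904 to 0.921, at least as closely as with the other KO arrays (0.904 and 0.822), and KO array 3 stood farthest from WT at 0.718 to 0.796.

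Transcripts of several resident macrophage genes were higher in Elf5 KO glands. Cd163, Mrc1, Clec10a and Maf rose between 3.18- and 5.23-fold, and these 4 were the only genes among the 34 to pass the test over all genes. Many general myeloid genes had higher means too, among them Ptprc, Csf1r, Tyrobp, Fcgr3 and Lyz2, but none passed. Adgre1, Spi1, Itgax and Cx3cr1, which are also myeloid markers, had log2 differences between -0.10 and 0.01 with overlapping groups.

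Of the 34 genes, 31 had a mean above the filter on dim genes and were tested with limma on log2(signal + 16). Itgam, Trem2 and Marco fell below it. Of the 31, 4 were called higher and 0 lower at an adjusted p under 0.05 (18 had an unadjusted p under 0.05). Among all 10916 genes tested, 1.24% were called, 1.13% higher and 0.11% lower, and 21.8% had an unadjusted p under 0.05. The 4 calls were 12.9% of the 31 genes. In 19 of the 31 genes all 3 KO values lay above all 3 WT values, and in 2 all lay below. This is 61.3% and 6.45% of them, against 16.7% and 10.6% of all genes tested. Cd86, among the 19, had mean signals of 60.4 in KO and 42.0 in WT, so only its KO mean lay above the filter (about 43.8). The same holds for Cd84, with 60.0 in KO and 37.4 in WT. Msr1, among the 2, had 33.5 in KO and 57.3 in WT, so only its WT mean lay above the filter. The median log2 difference over the 31 genes was 0.90 (0.06 over all genes tested), and 25 had a higher mean, as did 53.9% of all genes tested. The genes were chosen with earlier results of these data known, so these shares describe them and are no test of the group.

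Arrays with the same replicate number deviated together, and a fit with that number as a block (the paired fit) called 13 of the 31 genes, 12 higher and 1 lower. That fit called 12.2% of all genes tested, 7.7% higher and 4.53% lower. The 12 were Cd163, Mrc1, Clec10a, Maf, Lyve1, Csf1r, Fcgr3, Tyrobp, Lyz2, Mpeg1, Ptprc and Laptm5, and the 1 lower gene was Fcgr2b. The unpaired calls were sensitive to single arrays. None of the 31 genes was called without KO array 2 or 3 or without WT array 1, 2 or 3 (17, 17, 17, 14 and 16 genes at an unadjusted p under 0.05). Over all 10916 genes tested, 1803, 1832, 1656, 1553 and 1910 had such a p in the same 5 fits. In the fit without KO array 1, 9 of the 31 genes were called. That fit called 11% of all genes tested (1206), and the other 5 fits called 0 to 9 genes in all. Over these fits the adjusted p of Cd163, Mrc1, Clec10a and Maf ranged from 0.0165 to 0.180.

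**Figure D1:**
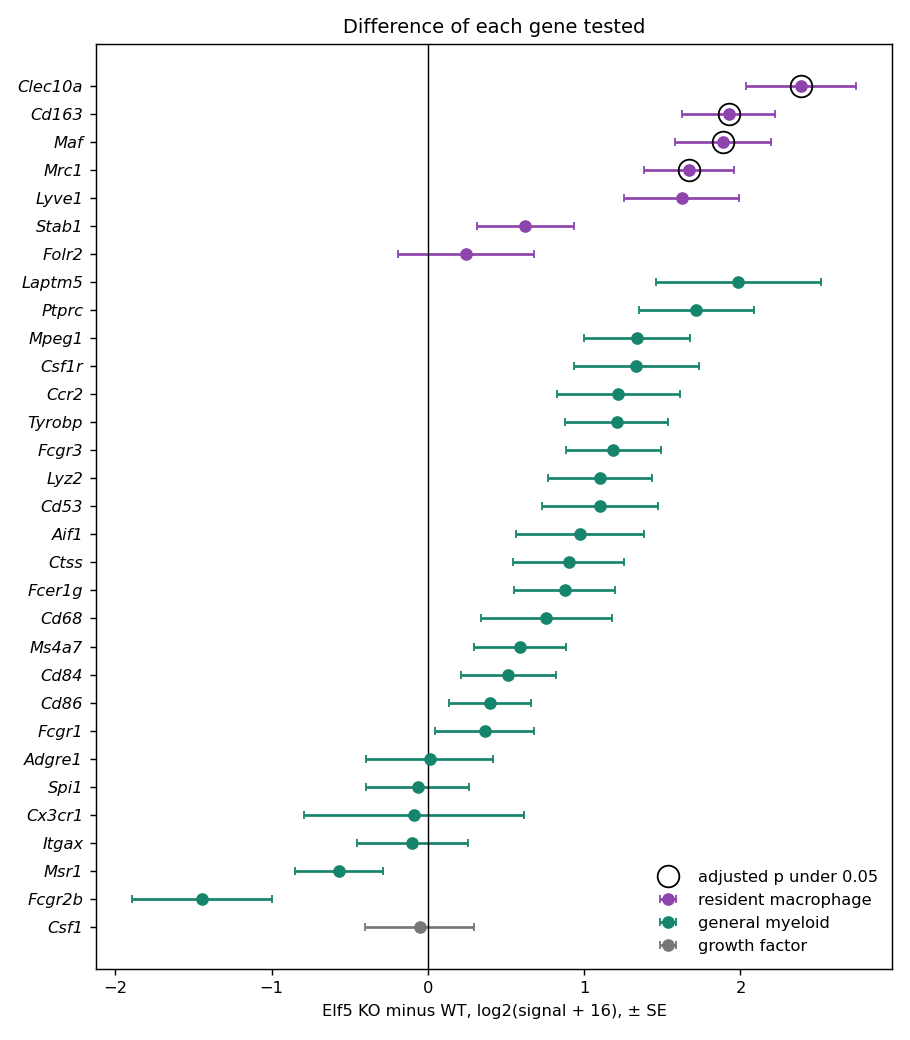
Each point is 1 gene, on the horizontal axis its difference between 3 Elf5 KO and 3 WT arrays on the log2(signal + 16) scale with limma's SE, and rows are grouped as resident macrophage, general myeloid and growth factor genes. The ringed points, Clec10a, Cd163, Maf and Mrc1, are the genes that passed, with differences from 1.67 to 2.39, and Fcgr2b lies farthest to the left at -1.45.

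Among the resident macrophage genes, Clec10a differed most. It encodes a C-type lectin that binds galactose and N-acetylgalactosamine. Its signal was 688, 506 and 1126 in KO arrays 1, 2 and 3, against 159, 103 and 124 in WT arrays 1, 2 and 3. The lowest KO array thus read over 3 times the highest WT array. Clec10a rose by 2.39 ± 0.35 on the log2 scale (SE, n = 3 per group, adjusted p = 0.0356), a 5.23-fold change.

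Cd163, the receptor that takes up haemoglobin bound to haptoglobin, read 424, 483 and 687 in the KO arrays and 113, 137 and 127 in the WT arrays. The groups did not overlap, and the WT values lay close together. Cd163 rose by 1.93 ± 0.30 (SE, adjusted p = 0.0356), with means of 531 ± 138 in KO and 125 ± 11.7 in WT (SD, n = 3 each). Mrc1, which binds mannose-bearing glycoproteins and collagen fragments, read 646, 821 and 708 in the KO arrays and 173, 260 and 223 in the WT arrays. It rose by 1.67 ± 0.29 (SE, adjusted p = 0.0446), and its 3 KO values varied little among themselves (725 ± 88.8, SD, n = 3).

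Maf encodes a transcription factor of resident macrophages that is also present in some T cells. It read 473, 521 and 767 in the KO arrays and 121, 170 and 142 in the WT arrays, without overlap. Maf rose by 1.89 ± 0.31 (SE, adjusted p = 0.0356). Its other 2 probe sets above the filter differed by 1.91 and 1.54, also without overlap. Averaged over all 6 of its probe sets, 3 of which were dim, the difference was 0.93 and did not pass (adjusted p = 0.0755).

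The remaining 3 resident genes did not pass. Lyve1, which is also a marker of lymphatic vessels, read 327, 582 and 672 in the KO arrays and 207, 162 and 105 in the WT arrays. The groups were apart, with a difference of 1.63 ± 0.37 (SE, adjusted p = 0.0613, paired adjusted p = 0.0295). Its dimmer probe set differed by 0.77, with KO array 3 (90.0) below WT array 1 (129). Stab1, a scavenger receptor shared with some endothelium, read 195, 152 and 270 in the KO arrays and 147, 102 and 128 in the WT arrays. It differed by 0.62 ± 0.31 (adjusted p = 0.271). Folr2, a folate receptor of resident macrophages, read 497, 206 and 150 in the KO arrays and 293, 182 and 170 in the WT arrays. Folr2 was high in KO array 1 alone, and its groups overlapped (difference 0.24 ± 0.43, adjusted p = 0.761). In all, 4 of the 7 resident genes rose, 3 did not pass, and 7 of 7 had a higher mean (53.9% of all genes tested did).

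**Figure D2:**
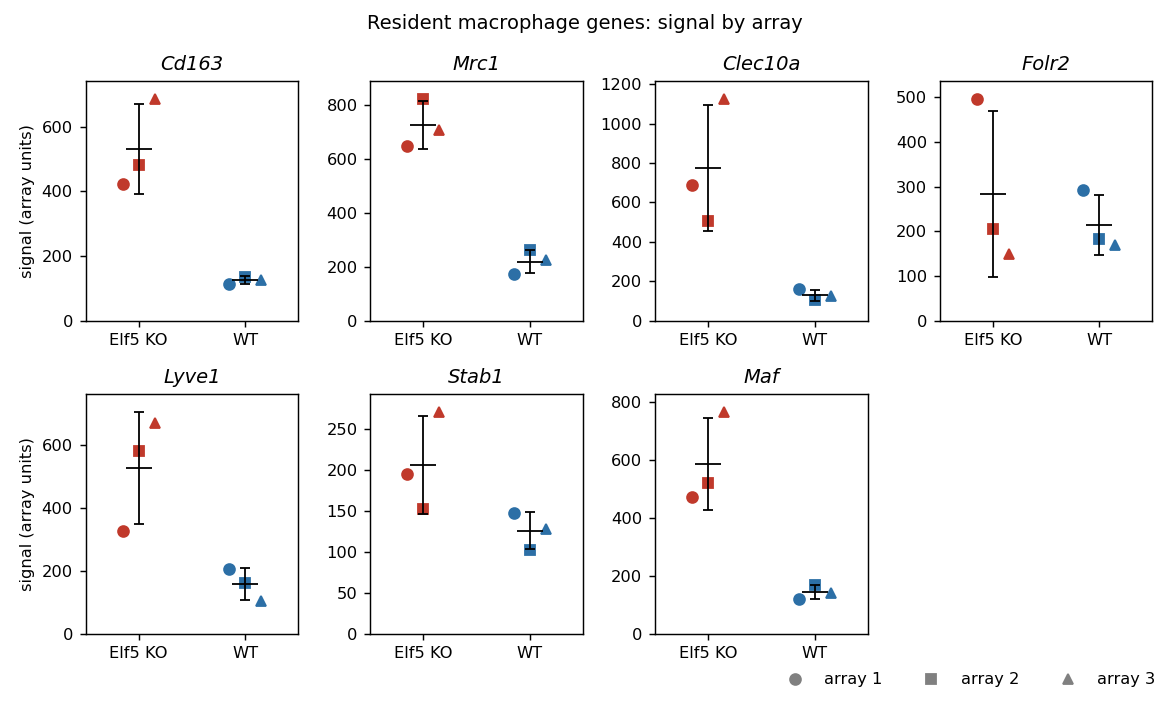
Linear signal of the 7 resident macrophage genes in the 3 Elf5 KO arrays (left in each panel) and the 3 WT arrays (right), 1 point per array with the mean and SD as black lines and marker shape giving the array number. Cd163, Mrc1, Clec10a, Maf, Lyve1 and Stab1 separate the groups, while Folr2 does not.

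Promoter sequence was available for 25 of the 34 genes from RefSeq (build GRCm38.p6), as the 250 bases before the start site. The members share myeloid expression, so these windows were searched for GAGGAA and its reverse complement TTCCTC, the core that the myeloid ETS factor PU.1, the product of Spi1, is known to prefer. The motif occurred in the windows of 13 of 25 genes (52.0%), against 25.9% of 27025 genes with such a window and 26.2% of the 8830 genes that were also tested on the arrays. It occurred in 2 of 4 resident genes with a window and in 11 of 20 general myeloid genes. The longer form GAGGAAGT occurred in none of the 25 and in 2.79% of all genes. A match describes these letters and shows no binding, and ETS factors, Elf5 among them, share the GGAA part. The windows of Mrc1 (chr2:14229164-14229413, plus strand) and Cd163 (chr6:124304401-124304650, plus strand) are shown because both genes rose while their windows differ in this motif. Capitals mark the motif on either strand.
Mrc1: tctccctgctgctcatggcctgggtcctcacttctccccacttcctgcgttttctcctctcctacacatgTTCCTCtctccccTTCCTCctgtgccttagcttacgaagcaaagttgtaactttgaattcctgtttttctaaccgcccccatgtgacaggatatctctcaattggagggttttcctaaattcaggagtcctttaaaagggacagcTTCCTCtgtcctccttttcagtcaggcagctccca
Cd163: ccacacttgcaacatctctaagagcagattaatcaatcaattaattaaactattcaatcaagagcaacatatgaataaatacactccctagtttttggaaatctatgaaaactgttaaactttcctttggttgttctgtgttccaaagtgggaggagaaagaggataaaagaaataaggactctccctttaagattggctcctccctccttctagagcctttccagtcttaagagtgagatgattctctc
Mrc1 holds 3 copies, which start 180, 167 and 35 bases before the start site. Cd163 holds none in this window.

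Among the 5 general myeloid genes for growth factor signalling, lineage and trafficking, 2 had KO values all above the WT values and none passed. Of all genes tested, 16.7% had such values. Csf1r, the receptor for Csf1 and Il34, read 2934, 1608 and 3816 in the KO arrays against 1477, 686 and 1077 in the WT arrays. All KO values lay above all WT values, but only narrowly for KO array 2 against WT array 1. Csf1r differed by 1.33 ± 0.40 (SE, adjusted p = 0.109, paired adjusted p = 0.0184). A second Csf1r probe set differed by 1.39 without overlap, and the dimmest one by -0.15 with overlap. Ccr2, the chemokine receptor that draws monocytes into tissue, read 194, 207 and 82.7 in the KO arrays and 34.2, 73.1 and 66.1 in the WT arrays. It differed by 1.22 ± 0.39 (adjusted p = 0.127), and by 0.36 on its other probe set above the filter.

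The other 3 markers of this kind had overlapping groups. Adgre1, which encodes the macrophage surface protein F4/80, read 827, 378 and 290 in the KO arrays and 594, 411 and 366 in the WT arrays. The difference was 0.01 ± 0.41 (SE, adjusted p = 0.991). KO array 1 was the highest and KO array 3 the lowest of all 6. Spi1, the gene of PU.1, read 128, 65.2 and 59.6 in the KO arrays and 99.1, 83.9 and 72.0 in the WT arrays, a difference of -0.07 ± 0.33. Cx3cr1, the fractalkine receptor, ranged from 17.9 to 141 in the KO arrays and from 7.4 to 117 in the WT arrays (difference -0.09 ± 0.71). In the low-ratio arrays these 3 genes differed by 0.86, 0.52 and 1.29, with no call.

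The growth factor Csf1 itself read 241, 283 and 124 in the KO arrays and 255, 190 and 201 in the WT arrays, and differed by -0.05 ± 0.35 (SE, adjusted p = 0.941). Its next probe set read 92.4, 55.8 and 26.2 in the KO arrays and 125, 178 and 136 in the WT arrays (difference -1.22). There all KO values were the lower ones, as on a further probe set (-0.47). The probe sets thus disagreed on Csf1. The second ligand of the same receptor, Il34, differed by -0.33 ± 0.34 (adjusted p = 0.586).

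Fc receptors bind antibody. Fcgr1 and Fcgr3 pass their signal on through Fcer1g, an adaptor with an activation motif (ITAM), as Trem2 does through the like adaptor Tyrobp, whereas Fcgr2b inhibits. Fcgr3 read 369, 293 and 337 in the KO arrays and 191, 109 and 122 in the WT arrays. The lowest KO value lay well above the highest WT value, with a difference of 1.19 ± 0.31 (SE, adjusted p = 0.0796, paired adjusted p = 0.0275). Tyrobp read 1333, 675 and 1063 in the KO arrays and 501, 365 and 398 in the WT arrays. It differed by 1.21 ± 0.33 (adjusted p = 0.0884, paired adjusted p = 0.0260). Fcer1g read 280, 249 and 211 in the KO arrays and 188, 113 and 94.1 in the WT arrays, again apart, with a difference of 0.87 ± 0.32 (adjusted p = 0.163). Fcgr1 differed by 0.36 ± 0.32 and overlapped.

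Fcgr2b stood out by the disagreement of its probe sets. The brightest one read 1071, 677 and 413 in the KO arrays and 3289, 1504 and 1285 in the WT arrays. All KO values were the lower ones, with a difference of -1.45 ± 0.45 (SE, adjusted p = 0.115, paired adjusted p = 0.0153). The next one read 490, 311 and 701 in the KO arrays and 174, 127 and 126 in the WT arrays, where all KO values were the higher ones (difference 1.65). The other 2 above the filter differed by 0.72 and 0.98, with overlap. No direction for the Fcgr2b transcript can be read from these arrays, and averaged over its 5 probe sets the difference was 0.35. Fcgr2b and Fcgr3 both lie on chromosome 1. Their windows, Fcgr3 (chr1:171059395-171059644) and Fcgr2b (chr1:170976072-170976321), both on the minus strand, are shown because they belong to an activating and an inhibitory receptor for the same ligand.
Fcgr3: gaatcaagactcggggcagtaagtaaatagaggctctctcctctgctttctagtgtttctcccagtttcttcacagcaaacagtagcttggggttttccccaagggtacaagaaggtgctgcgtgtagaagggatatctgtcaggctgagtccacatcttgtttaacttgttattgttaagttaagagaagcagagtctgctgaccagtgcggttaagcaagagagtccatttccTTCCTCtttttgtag
Fcgr2b: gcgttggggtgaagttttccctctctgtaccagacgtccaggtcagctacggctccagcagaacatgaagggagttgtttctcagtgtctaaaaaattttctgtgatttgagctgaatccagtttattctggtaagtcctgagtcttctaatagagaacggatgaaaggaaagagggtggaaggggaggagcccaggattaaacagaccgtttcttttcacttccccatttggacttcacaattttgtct
The RefSeq table has a pair of start sites for Fcgr3, and the same motif lies 15 bases before the one shown and 6 bases before the other. Fcgr2b does not hold it in this window.

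**Figure D3:**
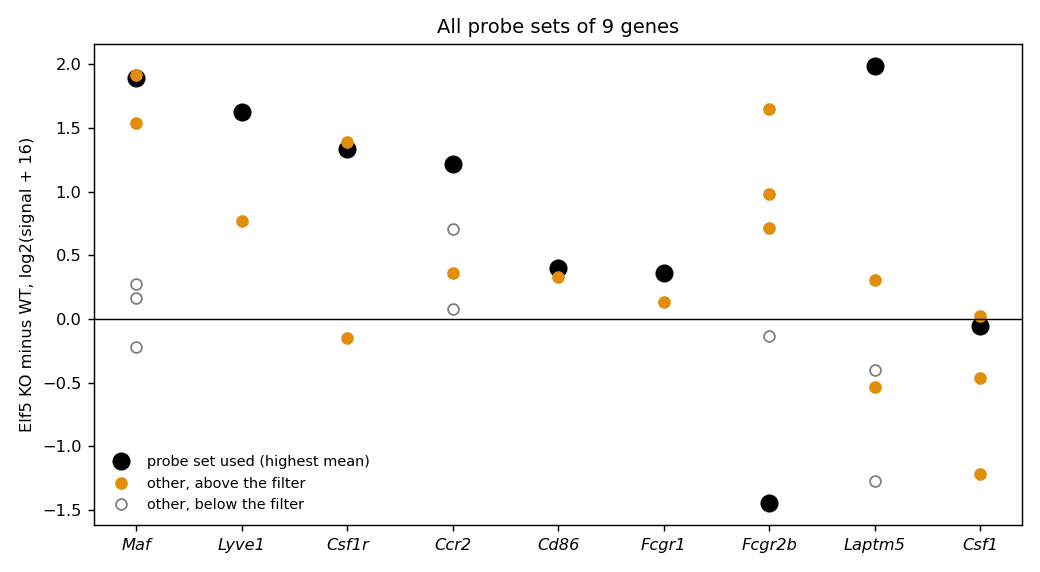
Each point is 1 probe set of the gene on the horizontal axis, and the vertical axis gives its difference between Elf5 KO and WT on the log2(signal + 16) scale for the 9 genes with a second probe set above the filter. The probe sets used for Fcgr2b (-1.45) and Laptm5 (1.99) lie far from the others of the same gene, while 2 further probe sets of Maf (1.91 and 1.54) lie near the one used.

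Of 5 tested scavenger and lysosomal genes, 4 had a higher mean (53.9% of all genes tested did) and none passed. Lyz2, the lysozyme of myeloid cells, read 5598, 3020 and 2951 in the KO arrays and 2119, 1510 and 1555 in the WT arrays. The groups were apart and KO array 1 stood out (difference 1.10 ± 0.33, SE, adjusted p = 0.109, paired adjusted p = 0.0207). Mpeg1, a pore-forming protein of macrophages, read 588, 769 and 1114 in the KO arrays and 404, 245 and 287 in the WT arrays. It differed by 1.34 ± 0.34 (adjusted p = 0.0786, paired adjusted p = 0.0352). Ctss, the protease cathepsin S, read 1750, 1403 and 2686 in the KO arrays and 1450, 820 and 830 in the WT arrays, so KO array 2 lay just below WT array 1. The endosomal glycoprotein Cd68 read 426, 287 and 119 in the KO arrays and 151, 133 and 134 in the WT arrays. KO array 3 fell under all WT values there, and Cd68 differed by 0.76 ± 0.42 over all arrays and by 1.51 in the low-ratio arrays.

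The scavenger receptor Msr1 read 25.1 to 38.3 in the KO arrays and 49.5 to 68.9 in the WT arrays (difference -0.57 ± 0.28, adjusted p = 0.269). Its next probe set, below the filter, differed by 0.53. Marco, another scavenger receptor, read 74.8, 41.5 and 79.0 in the KO arrays and 5.8, 20.2 and 2.2 in the WT arrays. Its groups were apart but its mean over all arrays lay below the filter, so it was not tested. Trem2, a lipid-sensing receptor, read no more than 20.1 in any array, and the integrin Itgam (CD11b) no more than 57.5, so neither was tested.

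Of the 8 tested integrin, pan-leukocyte and activation genes, 6 had KO values all above the WT values (16.7% of all genes tested did) and none passed. Ptprc, the leukocyte phosphatase CD45, read 846, 787 and 1835 in the KO arrays and 352, 281 and 313 in the WT arrays. The lowest KO array read over 2 times the highest WT array, and the difference was 1.72 ± 0.37 (SE, adjusted p = 0.0581, paired adjusted p = 0.0171). The tetraspanin Cd53 read 877, 778 and 380 in the KO arrays and 347, 229 and 304 in the WT arrays (difference 1.10 ± 0.37). Aif1, a calcium-binding protein of macrophages, read 115, 139 and 348 in the KO arrays and 65.5, 80.7 and 107 in the WT arrays. It differed by 0.97 ± 0.41, and by 0.40 in the low-ratio arrays. The co-stimulatory Cd86, the membrane protein Ms4a7 and the adhesion receptor Cd84 differed by 0.40, 0.59 and 0.51, and only Cd84 had overlapping groups among these 3. For Cd86 and Cd84 only the KO mean lay above the filter.

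Laptm5, a lysosomal protein of leukocytes, depended on the probe set. The one used, whose name marks possible cross-hybridisation, read 553, 329 and 1718 in the KO arrays and 200, 128 and 159 in the WT arrays, a difference of 1.99 ± 0.53 (SE, adjusted p = 0.0831). KO array 3 was far above the rest. The other 2 above the filter differed by 0.30 and -0.53 with overlapping groups. Averaged over its 5 probe sets Laptm5 differed by 0.02. The integrin Itgax (CD11c), found on dendritic cells and some macrophages, read 69.0, 81.8 and 123 in the KO arrays and 152, 66.3 and 86.6 in the WT arrays, with no separation (-0.10 ± 0.35).

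**Figure D4:**
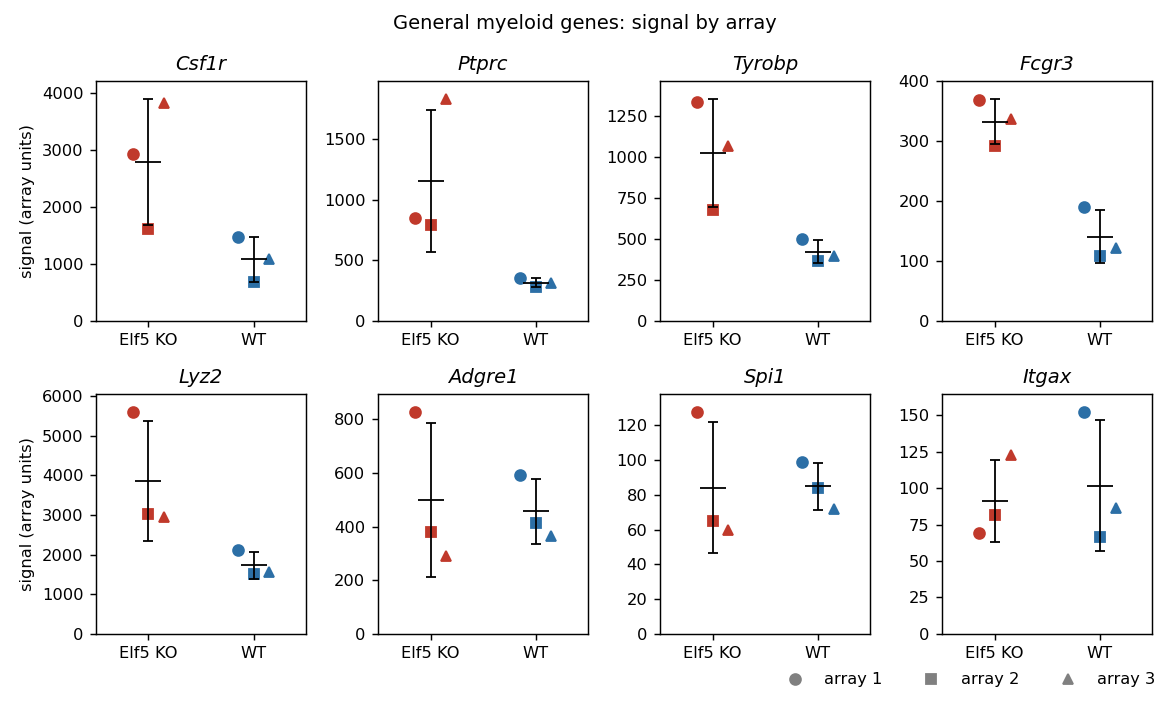
Linear signal of 8 general myeloid genes in the 3 Elf5 KO arrays (left in each panel) and the 3 WT arrays (right), 1 point per array with the mean and SD as black lines and marker shape giving the array number. Csf1r, Ptprc, Tyrobp, Fcgr3 and Lyz2 separate the groups, whereas Adgre1, Spi1 and Itgax overlap.

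Over the 17 genes with several probe sets, 16 further probe sets from 9 genes lay above the filter. Of these, 10 had the sign of the one used and 6 the opposite sign. The 6 were 3 of Fcgr2b and 1 each of Csf1r, Laptm5 and Csf1. Cd163, Mrc1 and Clec10a each had a single probe set, so for them no second probe set could be compared.

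The resident and general genes were compared as lists. The median log2 difference was 1.67 over the 7 resident genes and 0.87 over the 23 general genes tested, against 0.06 over all genes tested. Of the resident genes 6 of 7 had all KO values above all WT values (85.7%), and of the general genes 13 of 23 (56.5%), against 16.7% of all genes tested. Of the general genes 0 were called by limma (13 at an unadjusted p under 0.05), and 7 were higher and 1 lower in the paired fit. Over all genes tested, 21.8% had such a p, and the paired fit called 7.7% higher and 4.53% lower. No test of the difference between the lists was made, and 7 genes are few. The list medians were 1.20 and 0.59 when all probe sets of a gene were averaged.

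The KO arrays differed in both lists. Relative to the mean of the WT arrays, the median of the resident genes was 1.51, 1.82 and 2.03 in KO arrays 1, 2 and 3, and the median of the general genes was 0.91, 0.65 and 0.46. The median of all genes tested was 0.04, 0.12 and 0.04. Against the WT array of the same number instead, the resident medians were 1.77, 1.60 and 2.30 and the general medians 0.56, 0.81 and 0.53, so the order of the KO arrays depended on which WT values they were set against. KO array 1 held the highest of 6 values for 13 of 23 general genes (56.5%, against 11.2% of all genes tested) and for 1 of 7 resident genes. KO array 3 held it for 5 of 7 resident genes (71.4%, against 29.2% of all genes tested). The Gapdh ratio was 0.802, 3.89 and 13.6 in these arrays, and its part in these values was not tested. In KO array 1, the only KO array with a ratio under 2, the resident median was 1.51 and Clec10a, Cd163, Maf and Mrc1 differed by 2.30, 1.64, 1.62 and 1.51. With the log2 Gapdh ratio as a covariate these 4 differed by 2.07, 1.63, 1.60 and 1.63, without passing (adjusted p = 0.126 to 0.134). No gene at all passed with this covariate. Of 10916 genes 1112 had an unadjusted p under 0.05 there, and of the 31 members 17 did.

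**Figure D5:**
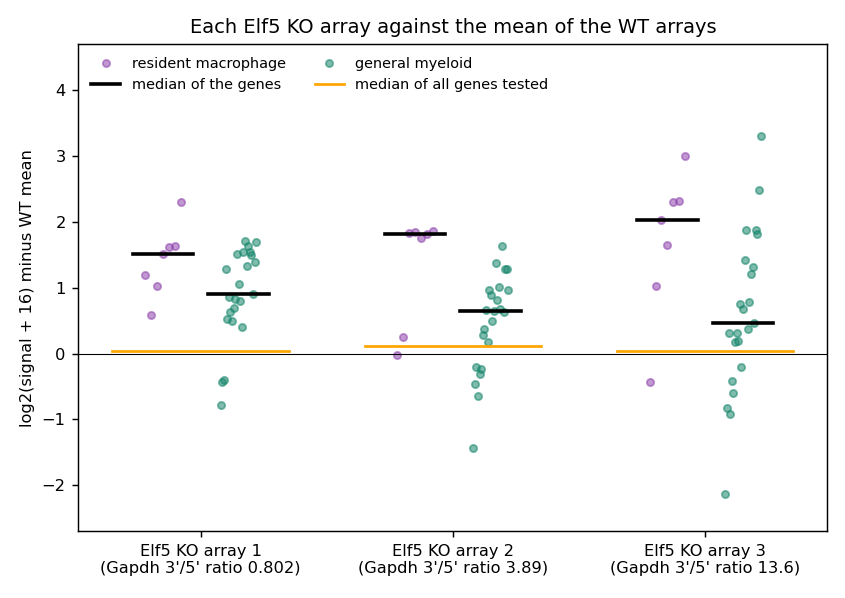
Each point is 1 tested gene in 1 Elf5 KO array, on the vertical axis its log2(signal + 16) minus the mean of the 3 WT arrays, with resident macrophage genes left and general myeloid genes right at each array. Black lines are list medians, which are 1.51, 1.82 and 2.03 for the resident and 0.91, 0.65 and 0.46 for the general genes in arrays 1, 2 and 3, and orange lines are the median of all genes tested.

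A second list of 22 resident macrophage genes, none of them among the 34, differed among themselves. Among all genes tested, 53.9% had a higher mean, and 1.13% were called higher, or 7.7% in the paired fit. Of the 19 tested on this list, 15 had a higher mean (median 0.89), 2 rose, 17 did not pass, and 7 were called higher in the paired fit. The 2 were Tgfbi, a secreted matrix adaptor, with 712, 782 and 1322 in the KO arrays and 318, 194 and 166 in the WT arrays (1.97 ± 0.36, SE, adjusted p = 0.0446), and Gas6, a ligand of the receptors that clear dead cells (1.84 ± 0.34, adjusted p = 0.0446). Both are also made by fibroblasts. The transglutaminase F13a1 read 1462, 1108 and 847 in the KO arrays and 530, 342 and 266 in the WT arrays, and the chemokine Ccl8 1379, 428 and 1286 in the KO arrays and 255, 305 and 283 in the WT arrays. Neither passed (adjusted p = 0.0610 and 0.0827), though both did in the paired fit (0.0136 and 0.0314). The complement gene C1qa read 1857, 253 and 97.7 in the KO arrays and 788, 609 and 426 in the WT arrays, so its KO values lay on both sides of WT and were lower where the Gapdh ratio was higher. The part of RNA quality in this was not tested. F13a1, Ccl8 and C1qa were chosen after their values were seen.

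Further lists of myeloid genes gave few calls. Of all genes tested, 53.9% had a higher mean and 21.8% an unadjusted p under 0.05, and the paired fit called 7.7% higher. Of 28 tested pan-myeloid genes, 21 had a higher mean (median 0.49) and 0 were called by limma (11 at an unadjusted p under 0.05), with 5 higher in the paired fit. Clec4a2, a C-type lectin, and Itgb2, the integrin beta chain of leukocytes, had the smallest p (1.22 ± 0.27 and 1.34 ± 0.32, SE). Clec4a2 read 41.6, 43.3 and 45.7 in the WT arrays, near the filter. Cd14 and Tlr2, both among the 11, went the other way (-0.80 ± 0.34 and -1.11 ± 0.47). All their KO values lay below all WT values. Of 9 genes of ITAM and Fc receptor signalling, 7 were higher (median 0.48) and 0 were called (3 at an unadjusted p under 0.05), with the phosphatase Ptpn6 at 1.25 ± 0.39 (paired adjusted p = 0.0244). Of 4 tested growth factor and chemokine genes that sustain or attract macrophages, Csf1 among them, 1 was higher (Cx3cl1, the ligand of Cx3cr1, at 0.66 ± 0.31) and 0 were called (0 at an unadjusted p under 0.05). The monocyte attractants Ccl2 and Ccl7 read no more than 43.3 in any array. Of 4 monocyte genes 2 were higher and 0 were called (2 at an unadjusted p under 0.05), both of them higher in the paired fit, with Plac8 at 1.11 ± 0.40.

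Few genes of macrophage activation passed (1.13% of all genes tested were called higher, and 7.7% in the paired fit). Retnla, a secreted protein induced by interleukin 4, rose by 1.78 ± 0.34 (SE, adjusted p = 0.0466). It read 6773, 3697 and 5595 in the KO arrays and 2030, 1493 and 1119 in the WT arrays, without overlap, and differed by 2.16 in the low-ratio arrays. It was the 1 call among 6 tested genes of alternative activation (median 0.44), and the paired fit also called the transcription factor Klf4 higher (1.34 ± 0.32, paired adjusted p = 0.0227). Il4ra, the 1 tested gene of this list with a lower mean, had all KO values below all WT values (-0.87 ± 0.33, SE, adjusted p = 0.173). Arg1 had overlapping groups (0.28 ± 0.68). Retnla is also made by fat tissue. Of the 3 tested genes of classical activation (median 0.52) 0 were called (1 at an unadjusted p under 0.05, against 21.8% of all genes tested). The paired fit called 1, Socs3, an inhibitor of cytokine signalling (1.24 ± 0.49, paired adjusted p = 0.0352), with all KO values above all WT values. Nos2, Il6, Il12b and Ptgs2 were below the filter.

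Several markers of other cell types were higher in the same KO arrays, and their part in the differences was not tested. Over all genes tested, 53.9% had a higher mean and 21.8% an unadjusted p under 0.05. The paired fit called 7.7% of all genes tested higher. Of 4 neutrophil genes tested, S100a8 and S100a9, which also occur outside neutrophils, rose by 1.64 ± 0.30 and 1.80 ± 0.32 (SE, adjusted p = 0.0446 each), while Elane, Mpo, Camp and Csf3r were below the filter. The 10 neutrophil genes with a probe set summed to 734 to 1226 in the KO arrays and 375 to 515 in the WT arrays. S100a8 (290 to 418) and S100a9 (194 to 280.5) made up a large part of the KO sums. The other tested neutrophil genes, Ngp and Mmp9, had overlapping groups (0.30 ± 0.70 and 0.35 ± 0.33, SE). Of 10 lymphocyte genes 9 were higher (median 0.68), 0 were called (5 at an unadjusted p under 0.05) and 4 were called higher in the paired fit. The 4 were the T cell receptor subunit Cd3d (1.94 ± 0.51, SE), the interleukin receptor Il7r (1.53 ± 0.45) and the B cell genes Ms4a1 (1.05 ± 0.31) and Cd79b (1.01 ± 0.30). All KO values of each lay above all WT values. Cd3d read 160, 118 and 507 in the KO arrays and 77.1, 32.9 and 31.7 in the WT arrays. The defining T and B cell genes Cd3e and Cd79a had overlapping groups (0.43 ± 0.68 and 0.39 ± 0.55). The lymphocyte list summed to 1009 to 2321 in the KO arrays and 599 to 992 in the WT arrays. Of 6 mast cell genes 5 were higher (median 0.72) and 0 were called (3 at an unadjusted p under 0.05), whereas the paired fit called Cpa3 and Kit higher (paired adjusted p = 0.0395 and 0.0217). The list had sums of 1521 to 3722 in the KO arrays and 855 to 1277 in the WT arrays. Kit was the largest part of the highest sum in each group. It read 423, 2362.5 and 1243 in the KO arrays and 51.6, 385 and 764 in the WT arrays, with overlap. The mast cell protease Cpa3 read 454, 542 and 338 in the KO arrays and 250, 141 and 174 in the WT arrays. Of 6 dendritic cell genes 3 were higher (median 0.08) and 0 were called (1 at an unadjusted p under 0.05). The 1 was Zbtb46, with all KO values below all WT values (-1.09 ± 0.42, SE). The list summed to 2925 to 5090 in the KO arrays and 2108 to 4039 in the WT arrays. Most of these sums was Cst3 (2609 to 4406 in KO and 1733 to 3546 in WT). All 4 eosinophil genes were below the filter.

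The non-leukocyte lists are set beside all genes tested, of which 53.9% had a higher mean and 21.8% an unadjusted p under 0.05. The paired fit called 7.7% of all genes tested higher and 4.53% lower. Among these lists, 8 of 8 fibroblast genes were higher (median 1.20) and 3 rose. They were the surface protease Fap (1.96 ± 0.32, SE), the matrix protein Dpt (1.81 ± 0.34) and the receptor Pdgfra (1.79 ± 0.36). The paired fit called 5 higher, adding the collagens Col1a1 and Col1a2. That list summed to 21387 to 35665 in the KO arrays and 11739 to 18838 in the WT arrays. Of 5 adipocyte genes 5 were higher (median 0.90) and 0 were called (2 at an unadjusted p under 0.05; Lep and Pparg higher in the paired fit), with sums of 19022 to 27544 in the KO arrays and 15747 to 19009 in the WT arrays. Of 8 tested lymphatic and blood endothelial genes 5 were higher (median 0.11) and 0 were called (2 at an unadjusted p under 0.05; Pdpn and Reln higher in the paired fit), with sums of 1647 to 2446 in the KO arrays and 1419 to 1537 in the WT arrays. Lymphatic vessels can also carry Lyve1 and Mrc1, and their markers went both ways. Pdpn, which fibroblasts carry too, differed by 1.53 ± 0.44 (SE) with all KO values above all WT values, Reln by 1.40 ± 0.57 with overlap and Flt4 by 0.15 ± 0.28. Prox1, the defining factor, read 1.4 to 8.2 in the KO arrays and 23.3 to 42.6 in the WT arrays, and Mmrn1 read 30.2 to 90.3 in the KO arrays and 23.6 to 45.1 in the WT arrays, both below the filter. The part of vessels in Lyve1 and Mrc1 was not tested. Of 9 luminal genes, Elf5 included, 3 were higher (median -0.11) and 0 were called (1 at an unadjusted p under 0.05). The paired fit called the adhesion gene Cdh1 higher and Elf5 and the milk protein gene Lalba lower. They summed to 39280 to 51558 in the KO arrays and 47231 to 98948 in the WT arrays. Of 6 myoepithelial genes 3 were higher (median -0.04) and 0 were called (1 at an unadjusted p under 0.05; Trp63 higher in the paired fit), with sums of 9448 to 14052 in the KO arrays and 12367 to 15919 in the WT arrays. No listed marker read 0 in any array.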

How the data were processed

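One series table with 6 arrays was used, 3 Elf5 KO and 3 WT, grouped and numbered by the sample titles, in which each is an animal and a biological replicate, so p-values measure the spread between these arrays. The deposited values are linear signal intensities of 45101 probe sets. MAS5 and affy are the tools named, per the submitters' processing notes, without versions. With 2% trimmed from both ends, every array averaged 150.0. The sources used here give neither a genome build nor detection calls. The number of arrays limits the precision.

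Genes were named through the platform annotation. Of the probe sets, 34958 (controls included) had 1 gene, 932 several and 9211 none listed, and only the first kind was used. The probe set with the highest mean of log2(signal + 16) stood for a gene. The filter left out 7277 genes whose mean was below the 40th percentile (a signal of about 43.8), and 10916 were tested with limma 3.58.1 in R 4.3.3 (lmFit, eBayes with an intensity trend, two-sided, Benjamini-Hochberg over all genes tested, threshold 0.05). Fold changes are on the log2(signal + 16) scale and understate those of dim genes. Correlations of same-numbered arrays' deviations from their group means were 0.46, 0.34 and 0.29, and at most 0.15 between different numbers. Each was over 0.1, so the fit with the number as a block is given where it changes a call. KO array 2 with WT array 3, of different numbers, was over 0.1 as well (0.149). The block was chosen from these same data, so its adjusted p may be too small. The labels do not say that animals were paired.

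All 34 members were named, and from each other list the called genes, otherwise at most the 2 with the smallest p. Elf5, defining markers of other cell types and some genes called in the paired fit were added. Further genes called in the paired fit were counted without being named. Genes below the filter, and F13a1, Ccl8, C1qa, Flt4, Ngp, Mmp9, Il4ra, Arg1, Cd14, Tlr2 and Cst3, were named by their values. The members, lists and tests were chosen with earlier results of these data known. Alternatives changed the block, the pseudocount (1 and 64), the filter, the scaling (quantile), the probe set rule, the trend, the Gapdh ratio (covariate, or arrays under 2) and left out each array in turn.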

Additional observations from a re-analysis of the deposited data

How the results depend on the processing

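Over the alternatives, the number of genes called over all genes (135) moved to 1335 with the replicate block, 85 with a pseudocount of 1, 56 without the filter, 69 with probe sets averaged, 0 with the Gapdh ratio as a covariate and 0 in the low-ratio arrays, and to between 0 and 1206 when each array was left out. The number of members called higher (4) moved to 12 with the replicate block, to 0 with the covariate and in the low-ratio arrays, and to between 0 and 8 when each array was left out. The number called lower (0) was 1 with the block and 0 to 1 without each array. Cd163, Mrc1 and Clec10a passed with either other pseudocount, without the filter, after quantile normalization, with probe sets averaged, without the trend and with the block, and so did Maf except with probe sets averaged. Their adjusted p ranged from 0.0121 with the block to 0.207 in the low-ratio arrays. With probe sets averaged, the resident median moved to 1.20 and the general median to 0.59. The other settings moved the medians by less than the spread between KO arrays. Leaving out each array gave medians of 0.77 to 0.97 over the members, 1.58 to 1.93 over the resident and 0.68 to 0.86 over the general genes.

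Ptprc passed after quantile normalization (adjusted p = 0.0461). Signs turned for 8 genes, none of them called in the unpaired fit. Fcgr2b was 0.35 and Msr1 0.046 with probe sets averaged. With the Gapdh ratio as a covariate Spi1 was 0.36, Cx3cr1 0.89 and Csf1 0.31, and in the low-ratio arrays 0.52, 1.29 and 0.17. After quantile normalization Adgre1 was -0.0065 and Cx3cr1 0.060, and Cx3cr1 was 0.0072 with a pseudocount of 1. Without each array Folr2 ranged from -0.23 to 0.59, Spi1 from -0.36 to 0.11, Adgre1 from -0.42 to 0.31, Cx3cr1 from -0.82 to 0.44, Itgax from -0.32 to 0.19 and Csf1 from -0.27 to 0.27. The cause of these changes was not tested. With 1 KO array left, the low-ratio fit assumes that it varies like the WT arrays.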
